A study of Mus musculus with 9 samples.

Results

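Potassium channel genes of mouse gastrocnemius, the main calf muscle, were followed through unloading and reloading of the hindlimb. The genes were chosen by their summed counts: protein-coding genes whose symbol begins with Kcn in the authors' annotation and that held at least 100 read pairs over all 9 libraries. Of 84 such genes listed, 28 reached that minimum, out of 55487 genes in the count table and 34376 with at least a read pair. The selection used abundance only, with no comparison between groups, so a high total in these libraries is how a gene entered and not a result. Just inside the minimum lay Kcnk2 with 112 read pairs and Kcne1l with 107, and just outside it lay Kcna1 with 96. The 28 genes comprised 13 of 35 pore-forming subunits of voltage-gated channels, 4 of 13 auxiliary subunits of those channels, 4 of 12 inward rectifiers, 3 of 12 two-pore-domain leak channels, 4 of 8 calcium- or sodium-activated channels and 0 of 4 beta subunits of the large-conductance calcium-activated (BK) channel. That 0 says only that these 4 genes did not reach 100 read pairs. All 28 passed the filter on low counts and were tested.

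The mice were wild-type C57BL/6 and male per the labels (C57BL/6J in the study's account of this experiment), their age was not given in the sources used here, and polyadenylated RNA was sequenced. Control mice (n = 4 libraries) stayed in conventional cages, Unloading mice (n = 2) were sampled on day 10 of hindlimb suspension, and Reloading mice (n = 3) were sampled on day 1 after the limbs bore weight again, which in the study's design followed the unloading period. Female mice are named in the methods for the suspension procedure, whereas Xist held at most 5 read pairs and each of 4 Y-linked genes at least 164 in every library. The labels do not state that each library came from a separate animal, so p-values measure the spread between these libraries, which may be technical. Every pair of comparisons shares the libraries of a group, so the comparisons are not independent of each other.

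Potassium channels let potassium leave the muscle fibre down its gradient. Voltage-gated channels (Kv) end the action potential, inward rectifiers (Kir) hold the resting potential and return potassium in the transverse tubules, ATP-sensitive channels (KATP) open when energy runs short, and calcium-activated channels shape the afterhyperpolarization. Some Kv subunits, called silent, form no channel alone and alter the channels they join, while auxiliary subunits carry no pore. In a whole muscle the same gene family is also used by smooth muscle, endothelium, nerve and immune cells.

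Promoter sequence is shown for the 2 genes whose level differed in all 3 comparisons (Kcnj2 and Kcng4), for the gene with the largest rise on unloading (Kcnf1) and for the gene with the largest rise on reloading against Control (Kcnn3). Each window holds the 250 bases before the transcript start of the RefSeq annotation on GRCm38.p6, read 5′ to 3′ on the gene's strand. Their positions are chr11:111065914-111066163 on the plus strand for Kcnj2, chr8:119635681-119635930 on the minus strand for Kcng4, chr12:17176889-17177138 on the minus strand for Kcnf1 and chr3:89519914-89520163 on the plus strand for Kcnn3, and 0 bases of each lay in an annotated exon. Capitals mark the motifs found.
Kcnj2: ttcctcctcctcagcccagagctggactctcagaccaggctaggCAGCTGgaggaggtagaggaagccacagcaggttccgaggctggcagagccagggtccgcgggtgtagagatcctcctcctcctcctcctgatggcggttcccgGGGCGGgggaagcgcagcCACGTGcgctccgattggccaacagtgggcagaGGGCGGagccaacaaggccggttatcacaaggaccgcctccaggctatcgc
Kcng4: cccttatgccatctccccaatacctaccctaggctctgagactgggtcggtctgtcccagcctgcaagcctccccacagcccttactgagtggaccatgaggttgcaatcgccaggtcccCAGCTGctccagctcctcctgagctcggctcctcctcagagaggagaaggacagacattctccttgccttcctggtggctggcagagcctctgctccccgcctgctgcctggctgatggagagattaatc
Kcnf1: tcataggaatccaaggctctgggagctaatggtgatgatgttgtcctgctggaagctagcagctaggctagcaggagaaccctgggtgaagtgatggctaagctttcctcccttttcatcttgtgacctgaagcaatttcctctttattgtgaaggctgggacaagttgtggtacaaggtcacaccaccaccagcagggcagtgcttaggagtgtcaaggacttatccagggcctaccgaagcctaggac
Kcnn3: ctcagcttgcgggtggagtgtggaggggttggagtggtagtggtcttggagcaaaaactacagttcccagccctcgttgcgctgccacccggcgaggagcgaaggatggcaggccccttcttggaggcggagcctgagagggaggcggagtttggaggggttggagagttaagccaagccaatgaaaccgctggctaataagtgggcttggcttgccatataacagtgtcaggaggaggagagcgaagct

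In the Kcnj2 window the capitals are an E-box (CAGCTG) from 206 to 201 bases before the start, a clock E-box (CACGTG) from 84 to 79, and Sp1 boxes (GGGCGG) from 102 to 97 and from 51 to 46. The Kcng4 window held an E-box from 130 to 125 bases before the start, and the Kcnf1 and Kcnn3 windows held none of the motifs searched. The search covered both strands for the E-box CAGCTG, the clock E-box CACGTG, the AP-1 site TGANTCA, the cyclic AMP response element TGACGTCA, the TATA box TATAAA, the Sp1 box GGGCGG and, by name, the MEF2 site and the CArG box. Windows were found for 22 of the 28 genes (31 windows), not including Kcnj11, Kcnn2 and Kcnk6. The E-box lay in 9 of the 31 windows and in 13.0% of 32851 windows of the same length over all genes. For the clock E-box the figures were 4 of 31 and 6.02%, for the Sp1 box 12 of 31 and 32.7%, and for the AP-1 site 1 of 31 and 6.75%. The TATA box (12.4% of all windows), the cyclic AMP response element (1.55%), the MEF2 site (2.92%) and the CArG box (1.47%) were in 0 of the 31. Median GC content was 60.4% in the windows of these genes and 52.4% in all windows. A match describes letters in these windows and does not show binding.

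The libraries held 9252443 to 19612101 read pairs in genes, and replicates of a group correlated at r = 0.981 to 0.990 across genes, which are not independent replicates. Normalization factors (trimmed mean of M-values, TMM) were 1.11 to 1.13 in the Reloading libraries and 0.928 to 0.960 in the others. Every Reloading difference is therefore relative to a rescaling: with library totals alone the median of all genes moved from 0.03 to 0.27 on the log2 scale against Unloading and from 0.01 to 0.25 against Control. Control 2 and Reloading 1 held skin transcripts (Krt2 at 1086 and 502 read pairs, against 3 or fewer elsewhere). Defining markers of the fibre, 8 genes, summed to between 154952 and 170400 CPM (counts per 1000000 read pairs in genes, after TMM) in Control, 154833 and 162088 in Unloading, and 109459 and 121927 in Reloading. Of the 8, 7 were lower in Reloading than in Control, where 21.3% of all genes were called lower. The summed markers of smooth muscle (120 to 145, 108 to 109 and 176 to 199 CPM in Control, Unloading and Reloading), endothelium (149 to 172, 144 to 145 and 254 to 312 CPM), macrophage (64.8 to 78.6, 67.6 to 68.3 and 142 to 160 CPM) and Schwann cell (38.5 to 59.1, 43.4 to 55.2 and 96.0 to 132 CPM) were higher in every Reloading library than in any other. Pericyte markers summed to 309 to 341, 358 to 397 and 344 to 355 CPM, but Rgs5 alone held 253 to 340 CPM of that sum. Of the 6 pericyte markers, 4 were higher and 0 lower in Reloading than in Control, where 22.1% of all genes were called higher. Against Unloading, 3 were higher and 1 (Rgs5) was lower. Fibroblast markers summed to 447 to 647, 523 to 537 and 585 to 750 CPM, and T cell markers to at most 1.32 CPM in any library. No marker of these lists was at 0 in all 9 libraries. In whole muscle, fewer cells of a type and less RNA per cell cannot be told apart, and the part these cell types had in the results was not tested.

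Which potassium channel genes did resting muscle hold most of? Levels between genes are compared only as CPM per kilobase of exon (CPM/kb). In Control muscle Kcna7, a Kv1-family (Shaker) subunit largely restricted to muscle, stood at 59.6 ± 1.01 CPM/kb (SD, n = 4). Kcnj11, the pore of the muscle KATP channel, followed at 47.6 ± 2.15 CPM/kb and Kcnc4, the fast-inactivating Kv3.4 subunit, at 23.2 ± 1.11 CPM/kb. Next came the inward rectifiers Kcnj12 (18.3 ± 1.29 CPM/kb) and Kcnj2 (14.7 ± 2.36 CPM/kb), the silent subunit Kcng4 (12.6 ± 1.36 CPM/kb) and the Kv3.1 subunit Kcnc1 (10.8 ± 1.09 CPM/kb). The Control ranges of Kcna7, Kcnj11, Kcnc4 and Kcnj12 each lay wholly above that of the next gene in this order, while those of Kcnj2 and Kcng4, and of Kcng4 and Kcnc1, overlapped. Below them the order ran through Kcnj8 (7.04 ± 0.322 CPM/kb), Kcnn1, Kcnma1, Kcnq5, Kcnf1 and Kcna5 (1.37 ± 0.190 CPM/kb). The 12 genes of lowest level ran from Kcnh2 at 0.526 ± 0.0841 down to Kcna2 at 0.0973 ± 0.0247 CPM/kb. Each overlapped the next in range, so the order of adjacent genes among them is not resolved here. Genes further apart could differ, as Kcnh2 (0.466 to 0.649 CPM/kb) and Kcna2 (0.0660 to 0.125 CPM/kb) did.

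**Figure D1:**
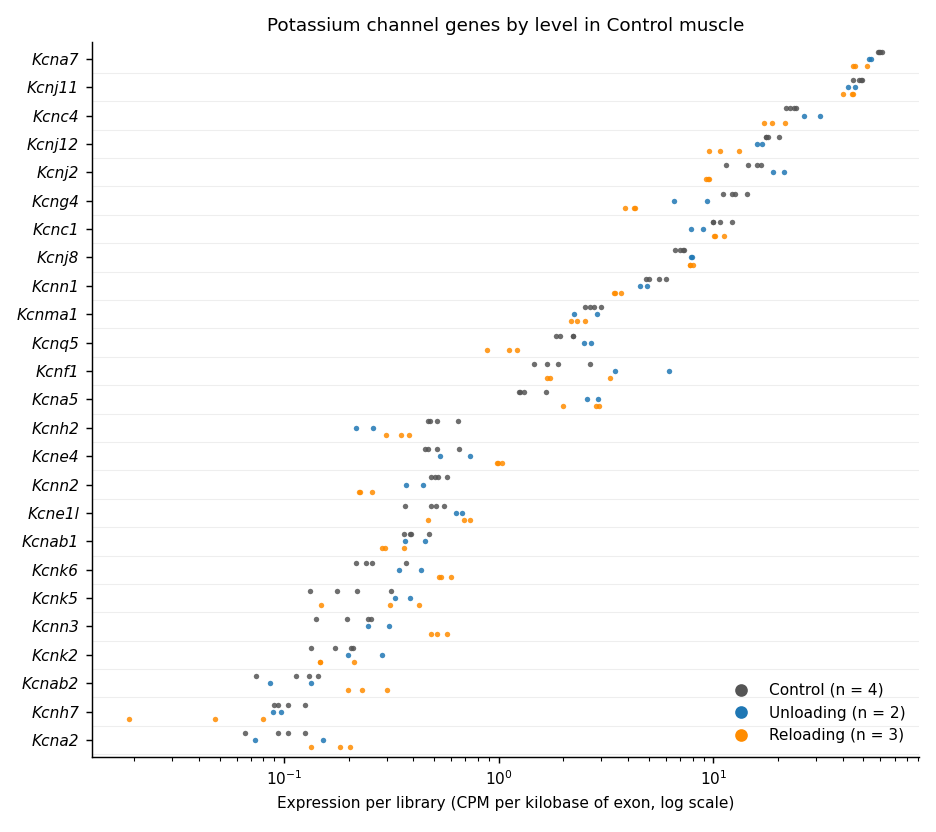
Level of 25 of the 28 potassium channel genes in every library, in CPM per kilobase of exon on a log axis, ordered by the Control mean; grey points are Control (n = 4), blue Unloading (n = 2) and orange Reloading (n = 3). Levels run from 59.6 CPM/kb for Kcna7 to 0.0973 for Kcna2 in Control, and the Reloading points of Kcng4, Kcnq5 and Kcnj2 sit left of every other point of their rows, those of Kcnn3 and Kcne4 right of them.

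Summed over the 28 genes, the level per length was 217 to 230 CPM/kb in the Control libraries, 216 and 221 in the Unloading libraries and 172, 174 and 192 in the Reloading libraries. Reloading libraries thus lay below all others on this scale. With library totals alone, an alternative chosen after seeing the data, the sums were 205 to 218, 210 and 202, and 195, 194 and 212 CPM/kb, and Reloading 3 overlapped the other groups. The make-up by class moved little for the abundant classes. Pore-forming Kv subunits made up 55.5% ± 0.581 of the sum in Control (SD, n = 4), 54.5% ± 0.768 in Unloading (n = 2) and 54.6% ± 1.15 in Reloading (n = 3), and inward rectifiers 39.6% ± 0.636, 40.6% ± 0.810 and 39.9% ± 0.780. Calcium-activated channels held 4.00% ± 0.384, 3.64% ± 0.0184 and 3.73% ± 0.345. The auxiliary subunits held 0.686% ± 0.0641 in Control, 0.826% ± 0.0504 in Unloading and 1.22% ± 0.0796 in Reloading, and the two-pore-domain genes stood at 0.300% ± 0.0492, 0.453% ± 0.0262 and 0.570% ± 0.123. Neither of these shares had overlapping ranges between Control and Reloading.

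On day 10 of unloading, 7 of the 28 genes differed from Control: 3 were higher (Kcnf1, Kcna5 and Kcnj2) and 4 lower (among them Kcnh2, Kcng4 and Kcnc1). That is 25.0% of the members, where 9.90% of all 14851 tested genes were called (4.40% higher and 5.50% lower). Adjusted p-values here and below come from edgeR's quasi-likelihood test with Benjamini-Hochberg adjustment over all tested genes, called at an adjusted p under 0.05. The median log2 fold change was -0.02 over the 28 genes and 0.00 over all genes. These calls rest on Unloading 1: without that library edgeR called 0 of the 28 genes (8 at an unadjusted p under 0.05) and 121 of all genes in place of 1470. Log2 fold changes were then 0.87 for Kcnf1, 0.91 for Kcna5, 0.38 for Kcnj2, -1.03 for Kcnh2, -0.43 for Kcng4 and -0.45 for Kcnc1. These 6 kept their direction with a lone Unloading library that is assumed to vary like the other groups. Without both libraries that held skin transcripts 5 of the 28 were called, and Kcnc1 (-0.29) was among those lost.

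One day into reloading, 13 of the 28 differed from Unloading, 5 higher (among them Kcnab2, Kcnn3, Kcne4 and Kcnc1) and 8 lower (Kcnq5, Kcnj2, Kcnf1, Kcng4, Kcnn2, Kcnc4, Kcnj12 and Kcnn1). This was 46.4% of the members against 37.5% of all genes (18.5% higher and 19.0% lower). The median change, on the log2 scale, was -0.15 in the members and 0.03 over all genes. Against Control, 17 differed, 6 higher (Kcnn3, Kcnab2, Kcnk6, Kcne4, Kcna5 and Kcna2) and 11 lower (among them Kcng4, Kcnn2, Kcnh7, Kcnq5, Kcnj12, Kcnj2, Kcnh2, Kcnn1, Kcna7 and Kcnc4). The members' share was 60.7% and the share of all genes 43.5% (22.1% higher and 21.3% lower), with medians of -0.12 and 0.01. The balance of directions depended on the scaling. With library totals alone it was 10 higher and 7 lower against Unloading, and 9 higher and 7 lower against Control. Without Unloading 2 the count against Unloading fell to 7, and Kcnc1 (0.22), Kcnn1 (-0.36), Kcnn3 (0.76), Kcnn2 (-0.66) and Kcne4 (0.44) no longer passed. Leaving out both libraries with skin transcripts gave 13 calls against Unloading and 14 against Control.

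**Figure D2:**
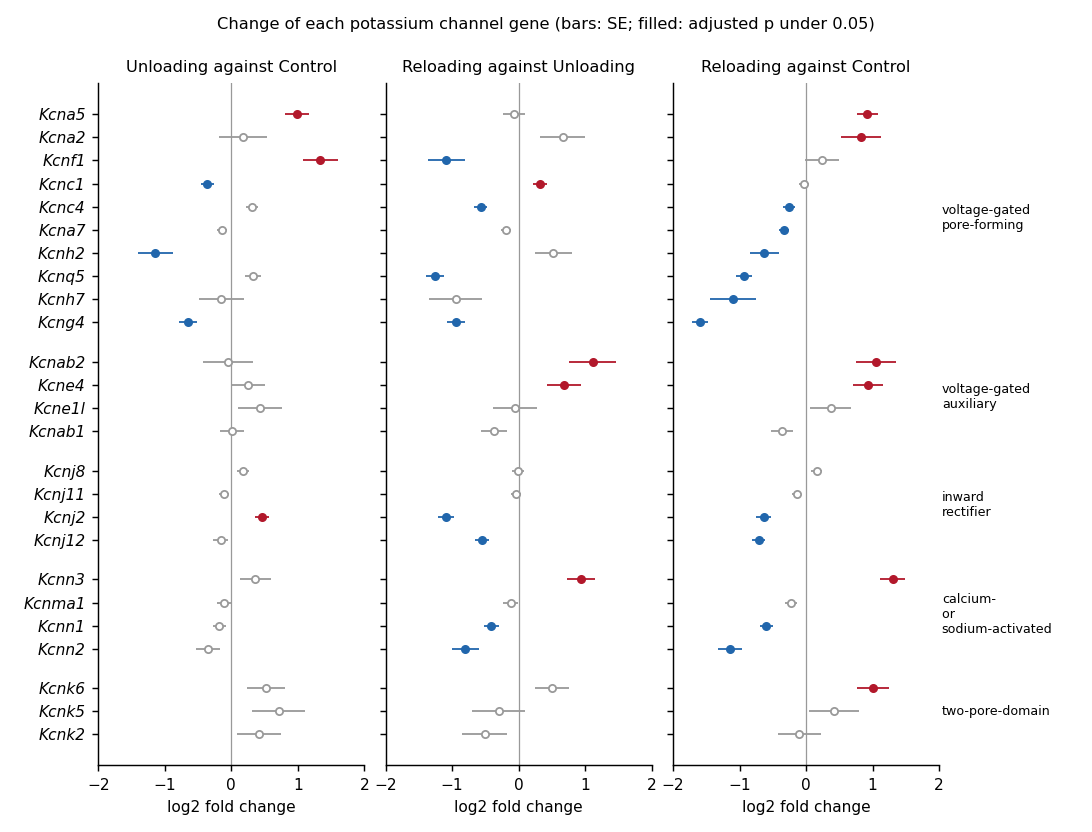
Log2 fold change of 25 of the 28 genes in the 3 comparisons, grouped by channel class, with bars showing the SE and filled points an adjusted p under 0.05 (red higher, blue lower; edgeR, n = 4 Control, 2 Unloading and 3 Reloading libraries). Filled points number 6, 12 and 16 from left to right, and Kcng4 has the lowest value against Control at -1.60 while Kcnn3 has the highest at 1.30.

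Across the comparisons, 2 genes (Kcng4 and Kcnj2) were called in all 3, 13 genes in 2, 5 genes in 1 and 8 genes in none. The last group included Kcnj11, Kcnj8, Kcnma1, Kcnab1, Kcnk5, Kcnk2 and Kcne1l. Of all tested genes, 9.90% were called on unloading, 37.5% between Unloading and Reloading, and 43.5% between Control and Reloading. How many of all genes were called in several comparisons was not counted, so this tally has no background beside it. The comparisons share libraries, so a gene's calls in them are not independent.

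Among the inward rectifiers, Kcnj2 (chr11:111066164-111076821, GRCm38) and Kcnj12 encode Kir2.1 and Kir2.2, which hold the resting potential of the fibre. Kcnj2 stood at 91.0, 87.3, 62.2 and 78.8 CPM in the Control libraries, at 116 and 103 CPM in Unloading and at 50.4, 51.3 and 51.7 CPM in Reloading. The 3 groups did not overlap, with Unloading highest and Reloading lowest. On unloading it rose 1.38-fold (log2 0.46 ± 0.11, SE; adjusted p = 0.0200) and then fell 2.14-fold (log2 -1.10 ± 0.12, adjusted p = 9.13e-06), to 1.56-fold below Control (adjusted p = 0.000201). Kcnj12 did not take the upward step. Its levels were 49.2, 48.3, 48.4 and 55.7 CPM in Control, 46.2 and 44.1 in Unloading and 26.3, 29.5 and 36.2 in Reloading, so that the Reloading libraries lay below all others. Its unloading difference was -0.16 ± 0.11 (adjusted p = 0.376), and reloading took it 1.47-fold below Unloading (adjusted p = 0.00142) and 1.64-fold below Control (adjusted p = 3.56e-05).

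Neither KATP pore gene was called in any comparison. Kcnj11 (Kir6.2, chr7:46093953-46100764) had 164, 181, 180 and 175 CPM in Control, 156 and 169 in Unloading and 163, 148 and 164 in Reloading, with overlapping groups. Its log2 fold changes were -0.11 ± 0.08 on unloading, -0.04 ± 0.08 from Unloading to Reloading and -0.14 ± 0.07 against Control (adjusted p = 0.0927). With the number of the sample descriptions as a replicate block the last was -0.17 and passed. Kcnj8 (Kir6.1), the pore of KATP channels in vascular muscle and pericytes, lay between 16.8 and 18.6 CPM in Control, at 20.1 and 20.3 in Unloading and between 19.8 and 20.5 in Reloading, a difference of 0.17 ± 0.09 (adjusted p = 0.265) and then 0.16 ± 0.08 (adjusted p = 0.130) from Control. With library totals alone the last was 0.40 and passed. Of the regulatory subunits, Abcc9 (SUR2), the sulphonylurea receptor of the muscle channel, had 280, 234, 267 and 266 CPM in Control, 246 and 234 in Unloading and 181, 168 and 184 in Reloading, and fell by 0.43 on the log2 scale from Unloading to Reloading (adjusted p = 0.000910) to -0.56 ± 0.07 against Control. Abcc8 (SUR1) was higher in Reloading than in Control (log2 1.11 ± 0.23, adjusted p = 0.00130), from 1.35 to 3.14 CPM in Control to 4.23 to 6.67 CPM in Reloading.

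**Figure D3:**
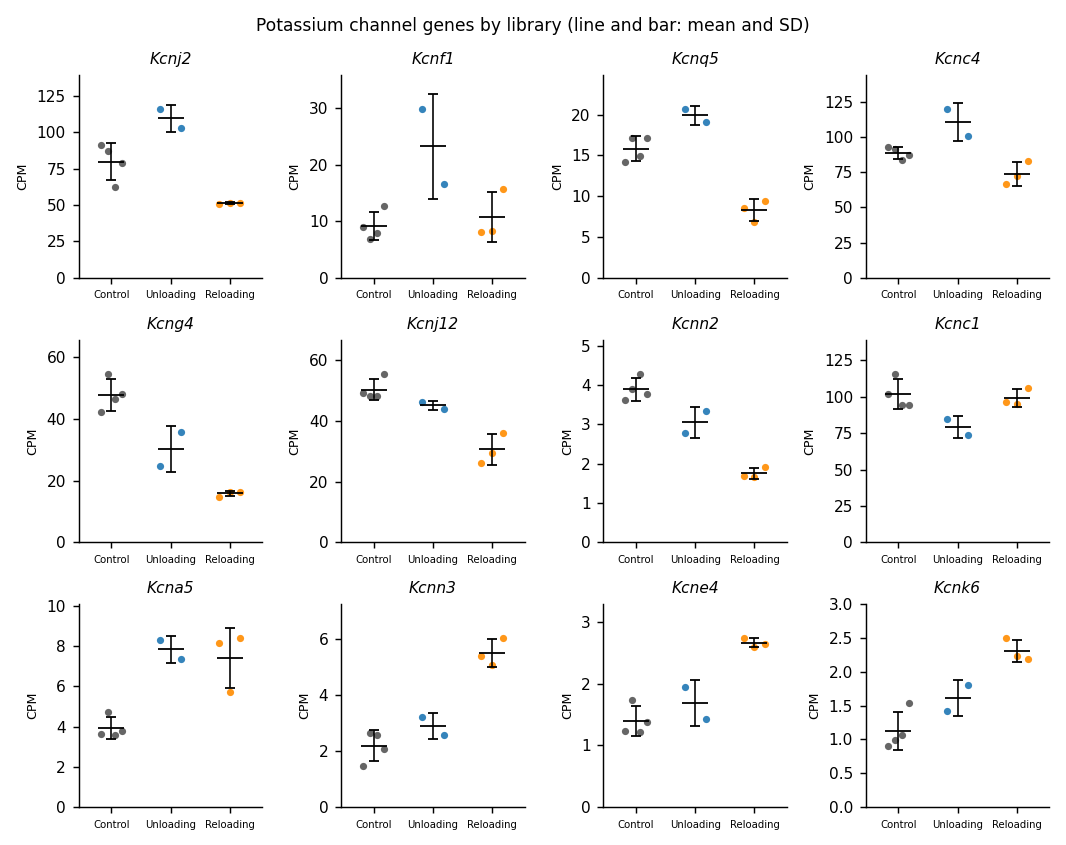
CPM of 12 potassium channel genes in each library, with the group mean and SD as line and bar; axes start at 0 and differ between genes. Kcnj2, Kcnf1, Kcnq5 and Kcnc4 have their highest libraries in Unloading, Kcng4, Kcnj12 and Kcnn2 are lowest in Reloading, Kcnc1 is lowest in Unloading, and Kcnn3, Kcne4 and Kcnk6 are highest in Reloading, while Kcna5 is above Control in both.

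The silent Kv subunits moved in opposite directions on unloading. Kcng4 (Kv6.4, chr8:119623854-119635680) and Kcnf1 (Kv5.1, chr12:17172100-17176888) both join Kv2-family channels. Kcng4 had 42.3, 54.7, 46.4 and 48.0 CPM in Control, 24.9 and 35.6 in Unloading and 14.8, 16.3 and 16.4 in Reloading. The groups followed each other downwards without overlap. It was 1.57-fold lower than Control on unloading (log2 -0.65 ± 0.13, adjusted p = 0.00565), 1.92-fold lower again on reloading (adjusted p = 0.000103) and in all 3.03-fold lower than Control (log2 -1.60 ± 0.12, adjusted p = 1.15e-07). Kcnf1 went from 9.02, 6.96, 8.0 and 12.7 CPM in Control to 29.9 and 16.7 CPM in Unloading and back to 8.06, 8.32 and 15.8 CPM in Reloading. Both Unloading libraries lay above all others, and they differed from each other by more than the Control libraries did. The rise was 2.53-fold (log2 1.34 ± 0.27, adjusted p = 0.00710) and the fall 2.13-fold (adjusted p = 0.00700), leaving 0.24 ± 0.26 against Control (adjusted p = 0.484). Both calls for Kcnf1 were lost in a robust fit, at unchanged fold changes of 1.34 and -1.09, and without Unloading 1, at 0.87 and -0.63.

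Amigo1, a membrane protein that accompanies Kv channels, fell on unloading by 0.34 on the log2 scale (adjusted p = 0.0309), from 48.7 to 61.6 CPM in Control to 43.1 and 47.1 in Unloading, and stood at -0.26 ± 0.08 from Control on reloading (adjusted p = 0.0157).

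Of the Kv3-family (Shaw) genes, subunits of fast high-threshold channels, Kcnc1 and Kcnc4 moved in opposite directions on reloading. Kcnc1 had 102, 116, 94.4 and 94.5 CPM in Control, 84.8 and 74.1 in Unloading and 96.6, 95.0 and 106 in Reloading. It was lowest in both Unloading libraries, at -0.36 ± 0.10 from Control (adjusted p = 0.0290) and with a return of 0.32 ± 0.10 (adjusted p = 0.0195), so that Reloading and Control overlapped. The unloading call was lost without Control 2 (-0.29), Unloading 1 (-0.45) or Unloading 2 (-0.26), and the return without Reloading 3 (0.27) or Unloading 2 (0.22). Kcnc4 had 93.2, 91.6, 83.9 and 87.0 CPM in Control, 120 and 101 in Unloading and 66.4, 72.1 and 83.2 in Reloading, 3 ranges that did not overlap. Its unloading difference of 0.31 ± 0.09 lay at the threshold (adjusted p = 0.0505) and passed without Reloading 1 (0.31) or Reloading 3 (0.31). It also passed by DESeq2, in a robust fit, with no filter on low counts and with only the 2 groups fitted. The other scalings and the replicate blocks did not call it. Leaving out 1 library at a time gave 0.18 to 0.43, the highest without Unloading 2. On reloading it fell by 0.57 on the log2 scale (adjusted p = 0.000419) to -0.26 ± 0.09 from Control (adjusted p = 0.0217), a call lost without Control 1 (-0.24), Reloading 1 (-0.19) or Reloading 2 (-0.25) and, at -0.02, with library totals alone.

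Of the Kv1-family (Shaker) genes, Kcna7 had the highest level per length. Its levels were 129, 133, 131 and 128 CPM in Control, 116 and 119 in Unloading and 99.6, 97.8 and 113 in Reloading, with the 3 groups in descending order and no overlap. Only the difference between Reloading and Control passed (log2 -0.33 ± 0.07, adjusted p = 0.000842), and it was -0.09 and no longer called with library totals alone. The step from Unloading was -0.19 ± 0.08 (adjusted p = 0.0718) and passed without Reloading 3 (-0.25). Kcna5 (Kv1.5), a subunit also of vascular muscle, went the other way, from 3.61, 4.73, 3.57 and 3.77 CPM in Control to 8.31 and 7.38 in Unloading and 8.14, 5.71 and 8.41 in Reloading. It was 1.99-fold above Control on unloading (log2 0.99 ± 0.18, adjusted p = 0.00385) and stayed 1.89-fold above on reloading (adjusted p = 0.000341), with Unloading and Reloading overlapping (-0.07 ± 0.17). Summed over 6 genes, smooth muscle markers stood at 120 to 145 CPM in Control, 108 to 109 in Unloading and 176 to 199 in Reloading. Against Control, 1 of the 6 was lower and 0 higher on unloading by edgeR (also 0 higher at an unadjusted p under 0.05, and 1 called in all by DESeq2), and the lower one was Smtn (mean CPM 78.4 in Control and 55.3 in Unloading), with a list median of 0.09 on the log2 scale. Over all genes, 5.50% were called lower and 4.40% higher on unloading. On reloading 4 of the 6 markers were higher than Control, a direction called for 22.1% of all genes. Among these 4 were Acta2 (2.54-fold, adjusted p = 1.26e-08) and Myh11 (2.16-fold, adjusted p = 4.38e-07). The part of smooth muscle in the Kcna5 differences was not tested.

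Kcna2 (Kv1.2), best known from myelinated axons, was among the scarcest members, with 11 to 30 read pairs a library. It had 1.24, 1.49, 0.786 and 1.12 CPM in Control, 1.80 and 0.874 in Unloading and 2.42, 2.17 and 1.59 in Reloading. Reloading lay above Control without overlap (log2 0.83 ± 0.30, adjusted p = 0.0356), but the call was lost without Control 1 (0.86), Control 3 (0.66), Control 4 (0.82), Reloading 1 (0.71) or Reloading 2 (0.78), without both libraries with skin transcripts (0.87) and by DESeq2 (0.82). Against Unloading the difference was 0.66 ± 0.34 (adjusted p = 0.144), and it passed with the description number as a replicate block (1.14) and without Unloading 1 (1.21). Schwann cell markers, which accompany nerve, moved the same way: 6 of 7 were higher in Reloading than in Control, where 22.1% of all genes were called higher. Their part in the Kcna2 difference was not tested.

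The auxiliary subunits have no pore and adjust gating and traffic of Kv channels. Kcnab2 (Kvβ2), a cytoplasmic beta subunit of Kv1 channels, had 0.789, 0.912, 1.00 and 0.515 CPM in Control, 0.599 and 0.929 in Unloading and 1.61, 2.10 and 1.39 in Reloading. Reloading was above both other groups, by 2.15-fold over Unloading (log2 1.11 ± 0.35, adjusted p = 0.0206) and 2.07-fold over Control (adjusted p = 0.00988). At 6 to 29 read pairs a library, the call against Unloading was lost with the description number as a replicate block (1.02), by DESeq2 (1.11) and without Reloading 2 (0.92) or Unloading 1 (0.86), and that against Control without Reloading 2 (0.87). Kcne4, a single-span inhibitory partner of several Kv channels, went from 1.24, 1.74, 1.21 and 1.37 CPM in Control to 1.95 and 1.42 in Unloading and 2.74, 2.60 and 2.65 in Reloading. It was 1.90-fold above Control in Reloading (log2 0.93 ± 0.22, adjusted p = 0.00302) without overlap. The smaller step from Unloading (0.68 ± 0.25, adjusted p = 0.0423) was lost with the same block (0.82), by DESeq2 (0.66) and without Reloading 1 (0.66), Reloading 2 (0.69), Reloading 3 (0.69) or Unloading 2 (0.44). Kcnab1 (Kvβ1), the most counted of the 4 genes, lay between 4.06 and 5.31 CPM in Control and between 3.18 and 4.04 CPM in Reloading (log2 -0.36 ± 0.16, adjusted p = 0.0910). Kcne1l, with 5 to 19 read pairs a library, differed from Control by 0.43 ± 0.33 in Unloading and 0.37 ± 0.31 in Reloading (adjusted p = 0.463 and 0.384), and was not resolved at this depth.

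Kcnq5 belongs to the Kv7 (KCNQ) genes, whose channels give a slow subthreshold current. It had 14.2, 17.1, 14.9 and 17.1 CPM in Control, 20.7 and 19.1 in Unloading and 8.62, 6.80 and 9.40 in Reloading. Unloading libraries lay above and Reloading libraries below every Control library. The first of these differences did not pass (0.33 ± 0.12, adjusted p = 0.111), while reloading took the gene 2.40-fold below Unloading (log2 -1.26 ± 0.14, adjusted p = 7.62e-06) and 1.91-fold below Control (adjusted p = 2.34e-05).

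The ERG-family genes were scarce. Kcnh2 (ERG1), the channel known for cardiac repolarization and in muscle for its link to atrophy, had 2.26, 2.49, 3.14 and 2.32 CPM in Control, 1.05 and 1.26 in Unloading and 1.69, 1.45 and 1.85 in Reloading. It was 2.21-fold lower on unloading (log2 -1.14 ± 0.26, adjusted p = 0.0127), and the 3 groups did not overlap. In Reloading it stood at -0.63 ± 0.22 from Control (adjusted p = 0.0291), a call lost without Control 3 (-0.51), Reloading 1 (-0.64) or Reloading 2 (-0.54), by DESeq2 (-0.64) and with library totals alone (-0.39), and at 0.52 ± 0.28 from Unloading (adjusted p = 0.161). Kcnh7 (ERG3) went from 1.58, 1.91, 1.43 and 1.37 CPM in Control and 1.35 and 1.48 in Unloading to 1.21, 0.289 and 0.728 in Reloading. With 4 to 27 read pairs a library, it was 2.14-fold below Control (log2 -1.10 ± 0.35, adjusted p = 0.0203), not called without Reloading 2 (-0.72) or Reloading 3 (-1.09) or with library totals alone (-0.86). Its step from Unloading, -0.95 ± 0.40 (adjusted p = 0.0742), passed without Reloading 1 (-1.44). The gene Gca, on the other strand, shares 4.57% of its exon bases and held 421 read pairs, and counting without strand cannot separate them.

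The calcium-activated genes split on reloading. None of the 4 was called on unloading, by edgeR or by DESeq2, and 0 had an unadjusted p under 0.05. Kcnn3 (SK3, chr3:89520164-89675132), the small-conductance channel that returns to fibres after denervation, had 1.47, 2.65, 2.57 and 2.06 CPM in Control, 3.22 and 2.57 in Unloading and 5.40, 5.06 and 6.03 in Reloading. All Reloading libraries lay above the rest, 1.92-fold over Unloading (log2 0.94 ± 0.21, adjusted p = 0.00315) and 2.46-fold over Control (log2 1.30 ± 0.19, adjusted p = 6.12e-05). Of the markers of denervated fibres, 5 of 7 tested were higher in Reloading than in Control, where 22.1% of all genes were called higher. The receptor gene Chrnd was not among the 5, with means of 1.37 CPM in Control and 1.31 in Reloading. Chrng was too scarce to be tested. The 8 listed summed to 35.9 to 40.9 CPM in Control, 42.0 to 43.7 in Unloading and 60.7 to 74.5 in Reloading. Their part in the Kcnn3 difference was not tested. Kcnn2 (SK2) fell instead, with 3.61, 3.90, 4.29 and 3.77 CPM in Control, 2.77 and 3.33 in Unloading and 1.69, 1.66 and 1.92 in Reloading. The 3 groups descended without overlap, and Reloading was 1.74-fold below Unloading (adjusted p = 0.00728) and 2.21-fold below Control (log2 -1.14 ± 0.18, adjusted p = 0.000115).

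Kcnn1 (SK1), the SK gene of highest level per length, also fell, from 24.7 ± 2.46 CPM in Control (n = 4) and 21.7 ± 1.24 in Unloading (n = 2) to 16.3 ± 0.704 in Reloading (n = 3). That was a log2 fold change of -0.60 ± 0.10 from Control (adjusted p = 0.000143) and -0.41 ± 0.11 from Unloading (adjusted p = 0.00920), the latter lost without Unloading 2 (-0.36) and, at -0.16, with library totals alone. Kcnma1, the BK pore, stood at 46.5 ± 3.41, 43.3 ± 7.63 and 39.7 ± 3.07 CPM. Its difference between Reloading and Control was -0.23 ± 0.09 (adjusted p = 0.0617) and passed without Control 2 (-0.27), Reloading 2 (-0.29), Unloading 1 (-0.23) or Unloading 2 (-0.24). Lrrc38, a gamma subunit of the BK channel, was lower than in Control both on unloading (log2 -0.72 ± 0.14, adjusted p = 0.00568) and on reloading (-0.79 ± 0.12, adjusted p = 0.000113), at 34.3 to 44.7, 22.8 to 25.6 and 18.2 to 27.9 CPM.

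The two-pore-domain channels carry a leak current. Kcnk6 (TWIK-2), found in vascular and immune cells, had 0.902, 0.995, 1.07 and 1.54 CPM in Control, 1.42 and 1.80 in Unloading and 2.50, 2.24 and 2.19 in Reloading. Control and Unloading overlapped, and Reloading was 2.02-fold above Control (log2 1.01 ± 0.24, adjusted p = 0.00309). Endothelial (6 of 7 genes) and macrophage (5 of 8 genes) markers were higher in Reloading than in Control as well, where 22.1% of all genes were called higher. Their part in the Kcnk6 difference was not tested. Kcnk5 (TASK-2) and Kcnk2 (TREK-1, opened by membrane stretch) had 4 to 24 and 8 to 19 read pairs a library. Kcnk5 differed by 0.71 ± 0.40 on unloading (adjusted p = 0.283) and 0.42 ± 0.38 from Control on reloading (adjusted p = 0.408), and Kcnk2 by 0.42 ± 0.33 and -0.10 ± 0.32 (adjusted p = 0.457 and 0.832). Differences of these sizes were not resolved at this depth.

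Some members lie near each other in the genome. Kcna2 and Kcnc4 lie 323 kilobases apart on chromosome 3, and Kcna7, Kcnj11 and Kcnc1 follow each other on chromosome 7 at gaps of 684 and 296 kilobases. In Reloading against Control, Kcna2 was higher (log2 0.83) and Kcnc4 lower (-0.26), but each call was lost under alternatives given above. On chromosome 7 the estimates were negative for Kcna7 (-0.33, called), Kcnj11 (-0.14, not called) and Kcnc1 (-0.03, not called).

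Partner subunits and related cation channels outside the Kcn names were listed as well, 16 genes of which 11 were tested and Lrrc26 was at 0 throughout. On unloading 2 were lower (Lrrc38 and Amigo1) and 0 higher, by edgeR, with 3 higher at an unadjusted p under 0.05 and 2 called in all by DESeq2 (9.90% of all tested genes were called). Against Unloading, reloading lowered 4: Abcc9, Dpp6, Tmem38a and Tmem38b, with 0 higher at an adjusted or an unadjusted p and 4 called in all by DESeq2. These were 4 of 11 tested genes, where 37.5% of all genes were called (19.0% lower). Dpp6, a partner of Kv4 channels, fell by 1.21 on the log2 scale (adjusted p = 0.0159). Tmem38a and Tmem38b encode the TRIC channels, which carry potassium across the sarcoplasmic reticulum while calcium is released. Tmem38a stood at 1464 to 1547 CPM in Control, 1509 and 1536 in Unloading and 977 to 1029 in Reloading (log2 -0.61 ± 0.07 from Unloading, adjusted p = 9.72e-06), and Tmem38b fell by 0.50 (adjusted p = 0.000853). Against Control, where 43.5% of all genes were called, 6 were lower and 2 higher, the latter Abcc8 and the pacemaker channel gene Hcn4 (log2 0.80 ± 0.24, adjusted p = 0.0140). The list's median log2 fold change was 0.01 on unloading, -0.29 from Unloading to Reloading and -0.47 against Control.

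Potassium that leaves the fibre is returned by the sodium-potassium pump and by cation-chloride cotransporters, of which 16 genes were listed and tested. On unloading 2 were higher, where 4.40% of all genes were called higher. The cotransporter gene Slc12a2 (NKCC1) was 1 of the 2 (log2 0.44 ± 0.10, adjusted p = 0.0128). From Unloading to Reloading 7 of the 16 rose and 4 fell, where 18.5% of all genes were called higher and 19.0% lower. Pump subunits were among those that rose. Atp1b1 went from 112 and 120 CPM to 291, 283 and 296 CPM (log2 1.32 ± 0.10, adjusted p = 2.19e-07). Atp1b3 rose by 0.27 ± 0.10 (adjusted p = 0.0390). Atp1b4, listed by its gene name and not taken here as a pump subunit, rose by 2.13 ± 0.22 (adjusted p = 4.41e-06). The pump regulator Fxyd5 (1.89 ± 0.19) and the cotransporters Slc12a4 (1.32 ± 0.13) and Slc12a7 (1.40 ± 0.18) rose too, whereas Slc12a2 (-1.37 ± 0.11), Fxyd6 (-0.84 ± 0.10) and Fxyd1 (-0.37 ± 0.07) fell. Slc12a2 thus went from 124 to 168 CPM in Control to 205 and 194 in Unloading and 72.4 to 83.1 in Reloading. Against Control 7 were higher and 3 lower (22.1% and 21.3% of all genes), with a list median of 0.21 beside 0.01 over all genes.

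**Figure D4:**
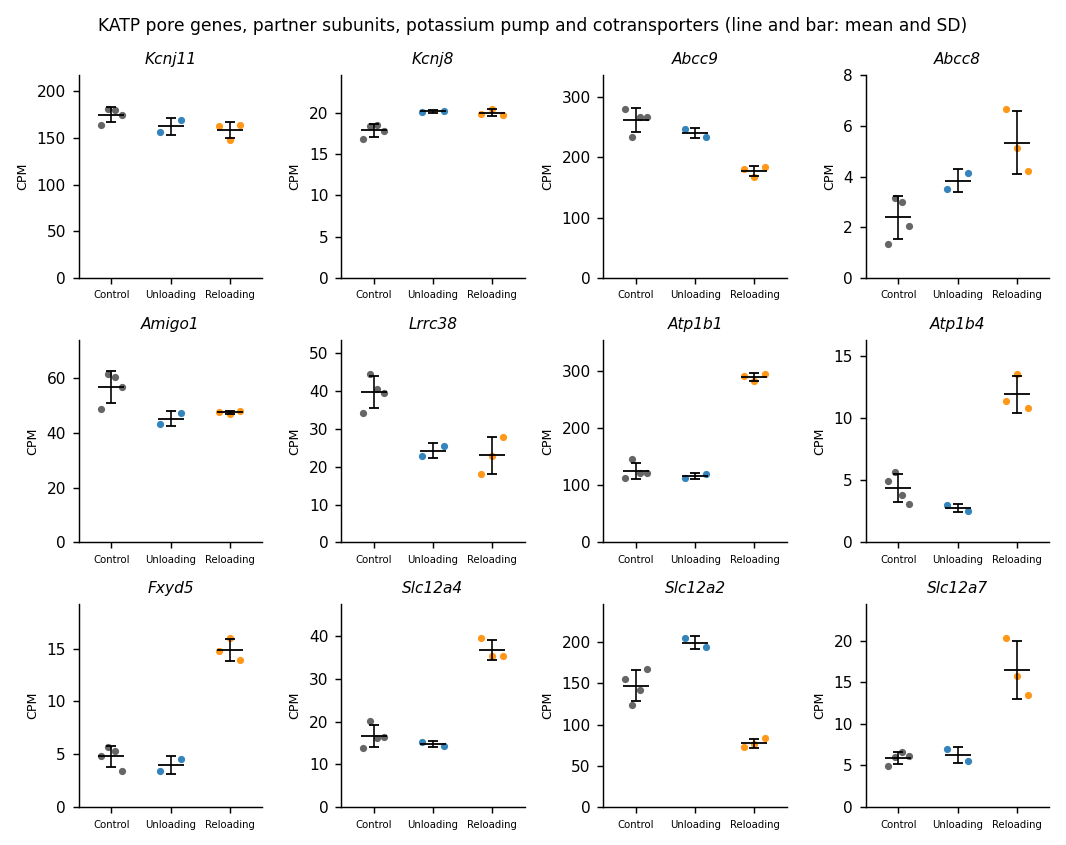
CPM of both KATP pore genes, their regulatory and other partner subunits, and genes listed with the potassium pump and cotransporters in each library. Line and bar are the group mean and SD. Axes start at 0 and differ between genes. Kcnj11 and Kcnj8 were not called in any comparison, Abcc9 is lowest in Reloading (168 to 184 CPM), Atp1b1 and Fxyd5 are highest there, and Slc12a2 is highest in Unloading and lowest in Reloading.

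The sodium and chloride channels that share the fibre membrane give a comparison for the potassium channels. Clcn1, the resting chloride channel, rose on unloading (log2 0.33 ± 0.07, adjusted p = 0.0101) and fell on reloading (-0.51 ± 0.08, adjusted p = 0.000128). Of the 5 genes listed, 4 fell from Unloading to Reloading, where 19.0% of all genes were called lower, among them Scn4a, the adult muscle sodium channel, at -0.26 ± 0.07 and Scn4b at -0.59 ± 0.09.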

How the data were processed

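Polyadenylated RNA of 9 gastrocnemius libraries was analysed from the deposited count table. Per the submitters' processing notes and the file header, the authors used STAR 2.7.3a on GRCm38.p6 and featureCounts 2.0.3 without strand, and the deposited values are raw counts of read pairs; the study's methods describe single reads. The authors' DESeq2 tables hold fold changes and p-values of their own comparisons, and only their symbols and gene types were used.

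Testing used edgeR 4.0.16 under R 4.3.3: filterByExpr (minimum count 10, minimum total 15; 14851 genes kept), TMM scaling, 1 quasi-likelihood fit over all 9 libraries with group as the only term, a two-sided F-test per comparison and Benjamini-Hochberg adjustment at 0.05. Standard errors came from the F statistic, and CPM per kilobase used the exon length of the count table. A read pair was worth 0.0510 to 0.108 CPM before TMM, and intervals and SDs of scarce genes include this counting error. DESeq2 1.42.0, other scalings, filters, replicate blocks and left-out libraries were tried as alternatives.

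The members, the gene groups, partner, transport and marker lists, and the motifs were chosen with earlier results of these data known. CPM per library are given for up to 6 higher and 6 lower members by log2 fold change among those called in each comparison, and for the 6 of highest Control level per length. Deviations from the group means correlated at r = 0.36, 0.14 and 0.16 in Control and Reloading libraries of the same description number. The first is the pair with skin transcripts. Control and Reloading libraries of different description numbers were at -0.22 to 0.12, and same-numbered pairs with Unloading at 0.02 to 0.08. The block by that number is given where it changes a call. Promoter windows came from RefSeq on GRCm38.p6; protein sequence was not used here. Some genes of the members and lists are counted but not reported here by name.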

Additional observations from a re-analysis of the deposited data

Results flagged for a closer look

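In 52 genes checked for a Control library far from the other 3, 1 stood out. Kcnj12, the Kir2.2 inward rectifier, had 55.7 CPM in Control 4 and 48.3 to 49.2 CPM in the others, and the gap was 0.886 of the group's range, above Dixon's critical value for 4 samples. Chance puts about 1 in 20 groups past that limit. The fold change against Reloading was called with or without that library.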

How the results depend on the processing

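The count of the 28 genes called was within 1.5 times its value under relative log expression scaling, library totals, no filter, a robust fit, DESeq2, fits of only the groups compared and the block by description number. With the title number as a replicate block, 4 were called for Unloading against Control in place of 7 (2 higher and 2 lower); same-numbered titles correlated at -0.20 to 0.08 and share only a number. The block by description number changed the calls of Kcnj11 (Reloading against Control) and of Kcna2, Kcne4 and Kcnab2 (Reloading against Unloading), and of no other member named here. With library totals alone Kcnj11 turned to 0.21 for Reloading against Unloading, where the median of all genes was 0.27. With a minimum of 1000 summed counts, 7 of 14 genes were called for Reloading against Control, all lower. Leaving out each library in turn gave 0 to 8 of the 28 genes for Unloading against Control, 7 to 14 for Reloading against Unloading and 13 to 18 for Reloading against Control, and 121 to 1518, 3934 to 5654 and 5267 to 6506 of all genes. The low counts came without Unloading 1 (0 and 121) and Unloading 2 (7), and without Control 3 it was 949 of all genes. Fewer libraries enter those fits, and no other cause was tested. Depth limits the genes with under 30 read pairs in every library.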
